A study of Mus musculus with 6 samples.

Results

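The genes described here are the 3 mouse members of the NR4A family of orphan nuclear receptors, Nr4a1 (ENSMUSG00000023034), Nr4a2 (ENSMUSG00000026826) and Nr4a3 (ENSMUSG00000028341), together with Crem (ENSMUSG00000063889). They were found by symbol and are 4 of the 31053 genes counted. They were selected on earlier values of these same libraries: their levels by cell class and their differences between treatments in glia. Their levels, and their differences between treatments in glia-like nuclei, are therefore descriptions without a test. Tests are given only for other cell classes and for the pool of barcodes with high mitochondrial shares, which includes glia-like ones.

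NR4A receptors are transcription factors with no known physiological ligand whose activity is set largely by how much of them is made. Their genes are immediate early genes: transcription starts within minutes of a stimulus, without new protein synthesis, through signals that include cyclic AMP (cAMP), protein kinase A and the factor CREB, which binds cAMP response elements (CREs) in promoters. Nr4a1 encodes NUR77, Nr4a2 encodes NURR1, known for its need in midbrain dopamine neurons, and Nr4a3 encodes NOR1. Crem encodes the CRE modulator, a relative of CREB, and an internal promoter of the gene makes the short repressor ICER, itself induced by cAMP, which shuts off CREB targets. The deposited counts are per gene and do not tell ICER from the other products of Crem.

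Nuclei came from the enteric nervous system of the colon, the nerve cells and glia embedded in the gut wall, of C57BL/6J wild-type mice, and were sorted on the DNA stain DAPI and a nuclear tag (INTACT). The groups were Stress (3 libraries, daily restraint for 7 days), Dexamethasone (1 library, 7 days of injections of this synthetic glucocorticoid) and Control (2 libraries, control treatment). The labels do not give age, the promoter that drives the tag, the number of animals in a library or whether each library is from other animals than the next. All p-values therefore describe spread among libraries, which may be technical. The series' title places the question in how psychological stress reaches the inflamed gut.

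Libraries held 853 to 3042 barcodes and 6057994 to 14838057 UMIs (unique molecular identifiers, 1 per captured transcript). Median mitochondrial shares per barcode ran from 4.44% to 19.8%, and 3430 nuclei of 11040 barcodes passed the filters. The sort held cells of other types besides neurons and glia: fibroblast-, smooth muscle-, epithelium- and lymphatic endothelium-like nuclei were also found. Glia-like nuclei numbered 124, 118 and 184 in Stress 1 to 3, 114 in Dexamethasone, and 203 and 138 in Control 1 and 2. Their summed level of 15 glia markers, such as Sox10, was 4073 to 6672 CPM (the UMIs of a gene relative to all nuclear-encoded UMIs of the class, on the usual CPM scale), and at most 2 of these markers were at 0 in a library. Any pair of libraries shared 0 to 3 barcodes.

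On GRCm38, Nr4a1 lies at chr15:101254269-101274795 (plus strand), Nr4a2 at chr2:57106830-57124003 (minus strand) and Nr4a3 at chr4:48045153-48086447 (plus strand), and GENCODE annotates no other gene over any of the 3. The stretches before the RefSeq transcription starts of the 3 receptors (GRCm38.p6) are printed because the same short element recurs in all of them. Capitals mark the 5-base core of the CRE, TGACG, or CGTCA where it lies on the other strand.
Nr4a1, chr15:101266596-101266845, plus strand: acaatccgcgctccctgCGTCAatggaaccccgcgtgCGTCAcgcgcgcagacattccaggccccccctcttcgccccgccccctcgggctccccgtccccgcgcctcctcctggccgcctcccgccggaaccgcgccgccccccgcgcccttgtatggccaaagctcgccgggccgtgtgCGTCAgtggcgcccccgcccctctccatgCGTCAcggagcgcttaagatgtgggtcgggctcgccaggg
Nr4a2, chr2:57124004-57124253, minus strand: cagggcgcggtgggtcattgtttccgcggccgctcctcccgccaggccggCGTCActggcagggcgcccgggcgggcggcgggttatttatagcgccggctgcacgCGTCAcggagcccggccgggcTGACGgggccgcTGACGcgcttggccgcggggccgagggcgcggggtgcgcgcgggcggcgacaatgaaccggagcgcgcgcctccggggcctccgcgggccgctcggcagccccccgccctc
Nr4a3, chr4:48045055-48045152, plus strand: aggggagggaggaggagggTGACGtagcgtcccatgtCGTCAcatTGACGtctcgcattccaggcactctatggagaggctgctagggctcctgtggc
Each receptor had 4 such cores in the 250 bases before its start. In Nr4a1 they began at -233, -213, -69 and -40, counted from the start. In Nr4a2 they began at -200, -144, -123 and -111, and in Nr4a3 at -231, -213, -205 and -147. The last core of Nr4a3 is not printed, since 152 bases of its window lie in a first exon of GENCODE. The Nr4a1 window lies in an intron of a longer annotated transcript.

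At least 4 cores were present in 44 of 27025 genes of the promoter table (0.163%), and at least 1 in 19.8%. These windows are rich in G and C (63.6% to 80%), and among promoters within that range 0.402% held at least 4. None of the 3 windows held the complete palindrome TGACGTCA, which 1.55% of promoters did, nor the NR4A monomer site AAAGGTCA (or TGACCTTT), found in 1.34%. Other genes known to be induced by cAMP and CREB had at least 1 core in 15 of 19 promoters in the table and at least 2 in 7, with a maximum below 4. These matches describe letters only and say nothing of binding.

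Crem lies on chromosome 18, where Gm6225 overlaps it on the opposite strand. How the counting used strand is not stated, so reads of that pair could not be told apart.

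In bulk sums of nuclei, fewer expressing nuclei and less RNA per nucleus cannot be told apart; the shares of nuclei further on bear on this. Glia-like nuclei had the highest median level of all 4 genes among the 6 cell classes with at least 10 nuclei in every library. The median over the 6 libraries was 654 CPM for Nr4a1, 510 CPM for Nr4a2, 436 CPM for Nr4a3 and 562 CPM for Crem in glia-like nuclei. In neuron-like nuclei, medians were 35.2 CPM for Nr4a1, 12.8 CPM for Nr4a2, 21.5 CPM for Nr4a3 and 44.1 CPM for Crem. Glia-like nuclei were above the next class in 6 of 6 libraries for Nr4a1, Nr4a3 and Crem and in 5 of 6 for Nr4a2. Fibroblast-like nuclei came next for Nr4a1 (median 460 CPM) and Nr4a3 (247 CPM), smooth muscle-like nuclei for Nr4a2 (82.1 CPM) and lymphatic endothelium-like nuclei for Crem (81.0 CPM). The ranges of every pair of neighbouring classes overlapped, with the lowest values of glia- and fibroblast-like nuclei in Control. Glia-like nuclei held 52.3% to 86.0% of the Nr4a1 UMIs of the kept nuclei of a library, 64.0% to 88.6% of those of Nr4a3, and 56.9% to 79.4% of those of Crem. These levels of 1 gene are compared between classes, and no order between genes is drawn from CPM, which are not per length.

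**Figure D1:**
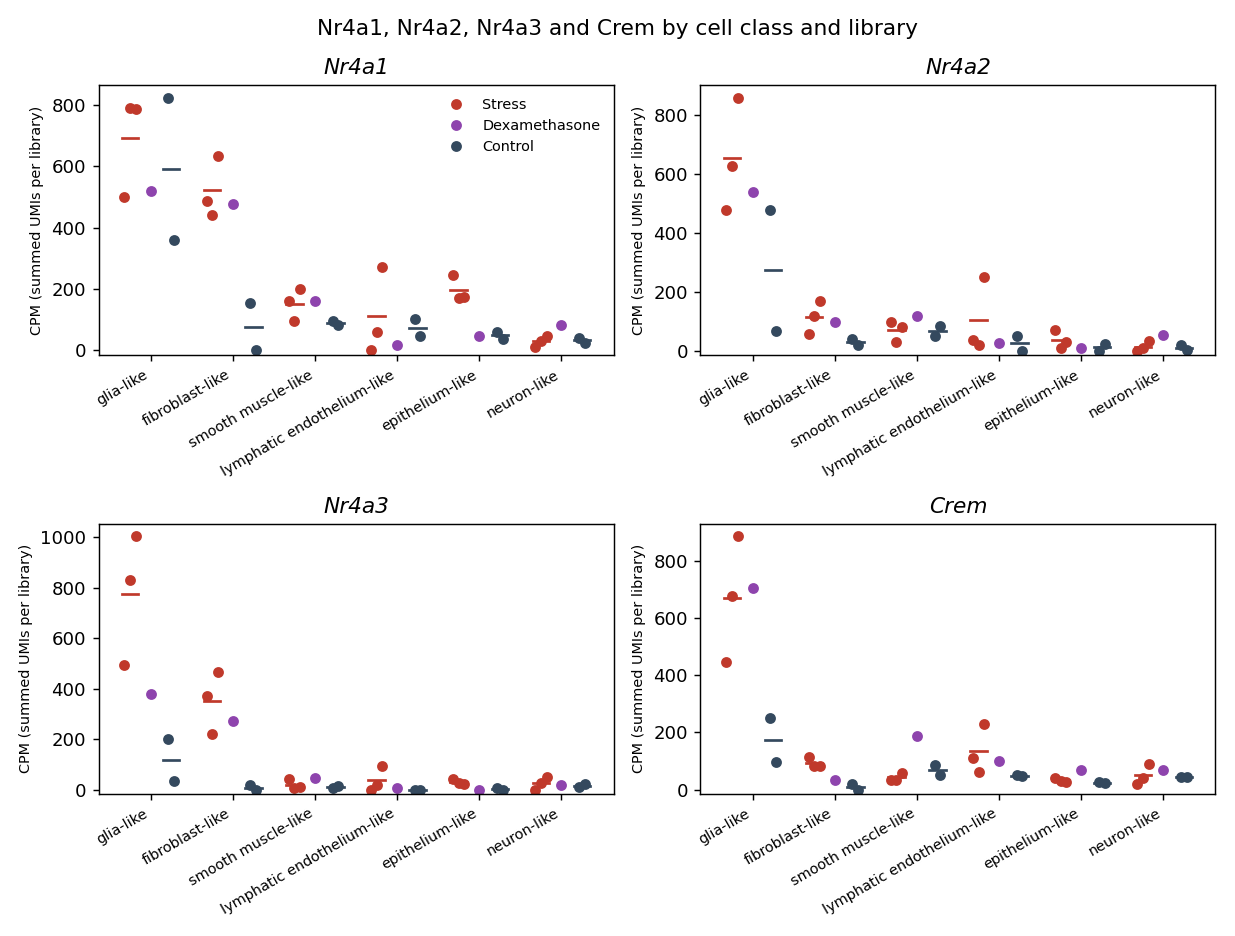
Level of each gene (CPM, linear axis) in 6 cell classes; each point is 1 library, coloured by group, and bars mark group means of 2 or 3 libraries. Glia-like nuclei have the highest points for all 4 genes, and in fibroblast-like nuclei Nr4a1 and Nr4a3 points of Stress (221 to 634 CPM) and Dexamethasone stand above those of Control.

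In glia-like nuclei, Nr4a3 and Crem stood higher in all 3 Stress libraries and in the Dexamethasone library than in either Control library, whereas Nr4a1 did not separate the groups. Nr4a3 had 493, 830 and 1003 CPM in Stress 1 to 3, 378 CPM in Dexamethasone, and 203 and 37.6 CPM in Control 1 and 2. Crem had 447, 677 and 888 CPM in Stress, 706 CPM in Dexamethasone, and 251 and 96.3 CPM in Control. Of the 4 genes, these 2 did not overlap between Stress and Control, as did 15.2% of the 6545 genes tested with all Stress libraries above both Control libraries; 2.09% of those genes passed edgeR's test.

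Nr4a2 had 477, 629 and 861 CPM in Stress, 540 CPM in Dexamethasone, and 479 and 68.1 CPM in Control. The lowest Stress library thus stood just under Control 1. Nr4a1 had 500, 789 and 787 CPM in Stress, 521 CPM in Dexamethasone, and 824 and 359 CPM in Control, so that Control 1 was the highest library of all. Control 2 was the lowest of the 6 libraries for every gene of the group.

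The log2 fold changes of edgeR's fit for Stress over Control in glia-like nuclei were 2.63 ± 0.46 for Nr4a3, 1.91 ± 0.35 for Crem, 1.21 ± 0.49 for Nr4a2 and 0.18 ± 0.30 for Nr4a1 (SE, 3 Stress and 2 Control libraries). For Dexamethasone over Control they were 1.72 ± 0.51 for Nr4a3, 2.10 ± 0.40 for Crem, 1.05 ± 0.56 for Nr4a2 and -0.10 ± 0.38 for Nr4a1 (SE). This fit gives the lone Dexamethasone library the spread of the other groups. Of the 7699 genes tested 6.09% passed, and 37.4% stood above both Control libraries, as Nr4a2, Nr4a3 and Crem did. Both comparisons share the Control libraries. Without Control 2, the Stress fold changes were 1.89 for Nr4a3, 1.38 for Crem, 0.41 for Nr4a2 and -0.30 for Nr4a1. Without Control 1 they were 4.34 for Nr4a3, 2.78 for Crem, 3.25 for Nr4a2 and 0.92 for Nr4a1.

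Several measures differed between the libraries along with these levels. Epithelial markers summed to 383 to 937 CPM in glia-like nuclei of Stress, 494 CPM in Dexamethasone, and 638 and 1055 CPM in Control. Smooth muscle markers summed to 86.7, 90.5 and 230 CPM in Stress, 507 CPM in Dexamethasone, and 56.7 and 61.1 CPM in Control. Median mitochondrial shares of all barcodes were 13.4%, 10.9% and 4.44% in Stress, 5.98% in Dexamethasone, and 8.80% and 19.8% in Control. Their part in the differences was not tested.

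The glia-like nuclei fell into 3 clusters, made without the 4 genes, other immediate early genes and genes induced by cAMP and CREB. Cluster 11 (138 nuclei) had the glia markers Col28a1, Kcna1 and Scn7a among its 10 leading genes. Cluster 13 (523 nuclei) was led by Ttn, Col11a1 and Frzb. Cluster 14 (220 nuclei) was led by Arih1 and Rnf122. Of the 4 genes described here, which took no part in making it, 3 (Nr4a3, Crem and Nr4a2) were among its 10 leading genes. It held 85 nuclei of Stress 3, 78 of Dexamethasone, and 8 and 4 of Control. Its leading genes thus carry the glial values on which the genes were selected and are no separate support. Cluster 13 held most glia-like nuclei of Stress 1, Control 1 and Control 2 and 59 of 118 of Stress 2, and cluster 14 most of those of Dexamethasone and the largest number in Stress 3, so levels were also read within clusters.

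Within cluster 13, Nr4a3 had 376, 720 and 404 CPM in Stress, 101 CPM in Dexamethasone, and 181 and 28.0 CPM in Control. Crem there had 380, 581 and 481 CPM in Stress, 202 CPM in Dexamethasone, and 281 and 92.3 CPM in Control. In this cluster the Stress libraries were again above both Control libraries for both genes, whereas the Dexamethasone library, with 23 nuclei, fell between them. Within cluster 11, Nr4a3 had 408, 535 and 519 CPM in Stress, 193 CPM in Dexamethasone, and 58.7 and 124 CPM in Control. Within cluster 14, Nr4a3 had 1099, 1099 and 1430 CPM in Stress, 473 CPM in Dexamethasone, 606 CPM in Control 1 and 0 UMIs in the 4 nuclei of Control 2. Crem in cluster 14 had 930, 980 and 1206 CPM in Stress, 916 CPM in Dexamethasone, and 211 and 253 CPM in Control, where 8 and 4 nuclei gave 8 and 5 UMIs.

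**Figure D2:**
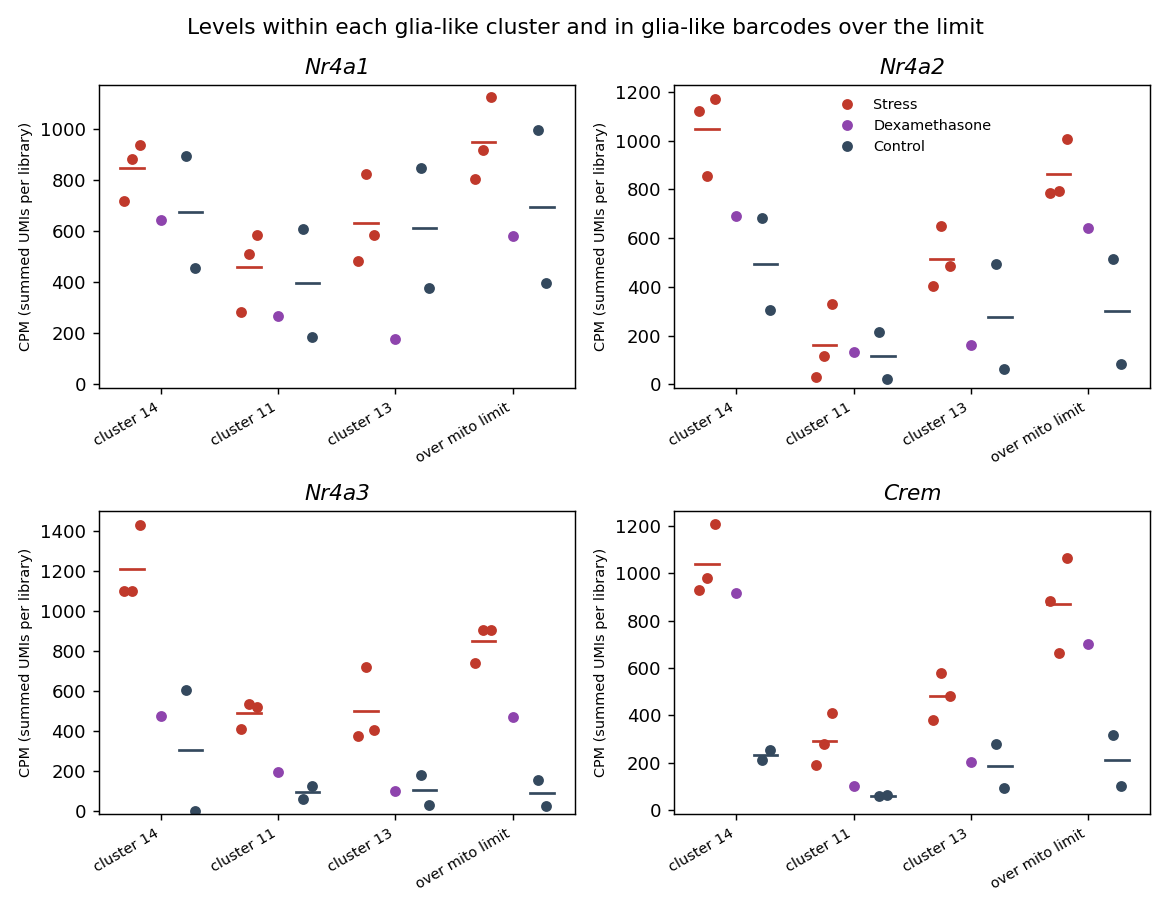
Level of each gene (CPM, linear axis) within the 3 glia-like clusters and in glia-like barcodes over the mitochondrial limit; each point is 1 library, coloured by group, and bars mark group means of 2 or 3 libraries. Stress points of Nr4a3 and Crem lie above both Control points in every column, while the Dexamethasone point of cluster 13 lies between the Control points.

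At a finer clustering (resolution 2.0), 178 nuclei of cluster 13 left the glia-like class for an unnamed cluster whose 10 leading genes include Ttn, Myh8, Neb, Myh1, Trdn and Mybpc1, which are known from striated muscle. Of these nuclei 51, 7 and 6 were from Stress 1 to 3, 6 from Dexamethasone, and 92 and 16 from Control. The 6 muscle genes summed to 38230 CPM in the 6 nuclei of Dexamethasone, to 0 CPM in those of Stress, and to 18.8 and 0 CPM in those of Control. The 15 glia markers summed there to 4620, 3340 and 5425 CPM in Stress, 1979 CPM in Dexamethasone, and 3719 and 3188 CPM in Control. Without the 178 nuclei, a comparison added after the clusters had been seen, glia-like nuclei had 388, 851 and 1009 CPM of Nr4a3 in Stress, 384 CPM in Dexamethasone, and 244 and 41.2 CPM in Control. Crem then had 400, 696 and 894 CPM in Stress, 712 CPM in Dexamethasone, and 163 and 103 CPM in Control, so that the groups still did not overlap for either gene. In the 345 nuclei left in cluster 13, however, Nr4a3 had 174, 764 and 407 CPM in Stress, 112 CPM in Dexamethasone, and 223 and 31.2 CPM in Control, so that Stress 1 was lower than Control 1. Crem had 286, 620 and 490 CPM in Stress, 186 CPM in Dexamethasone, and 180 and 99.8 CPM in Control there.

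Barcodes excluded for carrying over 5% mitochondrial UMIs gave a separate set of glia-like barcodes, 82 to 311 per library, after clustering without that limit. Nr4a3 there had 739, 906 and 903 CPM in Stress, 471 CPM in Dexamethasone, and 155 and 25.5 CPM in Control. Crem had 884, 664 and 1062 CPM in Stress, 703 CPM in Dexamethasone, and 318 and 101 CPM in Control. These barcodes come from the same libraries and are no independent replicate. As in the kept nuclei, every Stress library and the Dexamethasone library stood above both Control libraries for both genes. For Crem, the Dexamethasone library lay within the range of the Stress libraries in both sets. Over all 6882 barcodes above the limit, whatever their type, no gene passed edgeR's test for Stress (0% of 14245 genes, with 610 at an unadjusted p under 0.05 and 48 called by DESeq2) and the adjusted p of Nr4a3 was 0.854 (log2 fold change 2.88 ± 1.03, SE, edgeR, unadjusted p 0.0293). Its groups did not overlap there, as for 9.96% of genes with Stress above both Control libraries. This pool includes the glia-like barcodes, so its p in part covers the glial difference on which the genes were selected.

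Whether the 4 genes were found in the same nuclei was read after thinning every nucleus to 1000 UMIs, which left 808 of 881 glia-like nuclei. Nr4a2 and Nr4a3 were both found in 94 nuclei, against 61.5 if their shares within each library were independent, a ratio of 1.53. The other 5 pairs gave ratios of 1.20 to 1.38: 1.29 for Nr4a1 with Nr4a2, 1.21 for Nr4a1 with Nr4a3, 1.20 for Nr4a1 with Crem, 1.37 for Nr4a2 with Crem and 1.38 for Nr4a3 with Crem. The ratio of Nr4a2 with Nr4a3 was above 1 in 6 of 6 libraries, and the lowest was 1.32 in Stress 3. In Control 2 the ratios rest on at most 5 nuclei per pair.

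The ratios differed between the clusters. Within cluster 13 alone, ratios were 1.42 to 1.75 over the 6 pairs, and within cluster 14, where the genes were common, 0.859 to 1.22. At least 3 of the 4 genes were found in 16 of 98, 21 of 114 and 61 of 178 glia-like nuclei of Stress 1 to 3, in 18 of 109 of Dexamethasone, and in 15 of 174 and 3 of 135 of Control. All 4 were found in 3, 3 and 10 nuclei of Stress, 3 of Dexamethasone, and 0 and 0 of Control.

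Nuclei in which a gene was found were deeper in most libraries, which thinning addresses only for the nuclei kept. In Stress 3, nuclei with a Nr4a3 UMI had a median of 4875 UMIs and those without it 3656, while in Stress 1 these medians were 1262 and 1774. As a level for free RNA, at the same 1000 UMIs Nr4a1 was found in 1.03% to 8.57% of neuron-like nuclei of a library and in 25.9% to 56.7% of glia-like nuclei. Nr4a3 was found in 19.4% to 36.5% of glia-like nuclei of Stress, 26.6% of Dexamethasone and 12.1% and 2.96% of Control, against 0% to 3.13% of neuron-like nuclei. In Control 2 itself Nr4a3 was found in 1.75% of 57 neuron-like nuclei, beside the 2.96% of glia-like nuclei. Neuron-like nuclei may make some of this RNA themselves and are only a rough level. In every library but Dexamethasone those without a Nr4a1 UMI were deeper than such glia-like nuclei (medians of 8097 and 3351 UMIs in Stress 3). Thinning then removes more of their UMIs, so their thinned shares may understate free RNA. Not thinned, Nr4a1 was found in 8.82% to 24.0% of neuron-like and 38.4% to 82.1% of glia-like nuclei of a library. For Nr4a3 these shares were 0% to 14.4% and 4.35% to 53.8%. Glial Nr4a3 could therefore not be told from free RNA in Control 2.

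**Figure D3:**
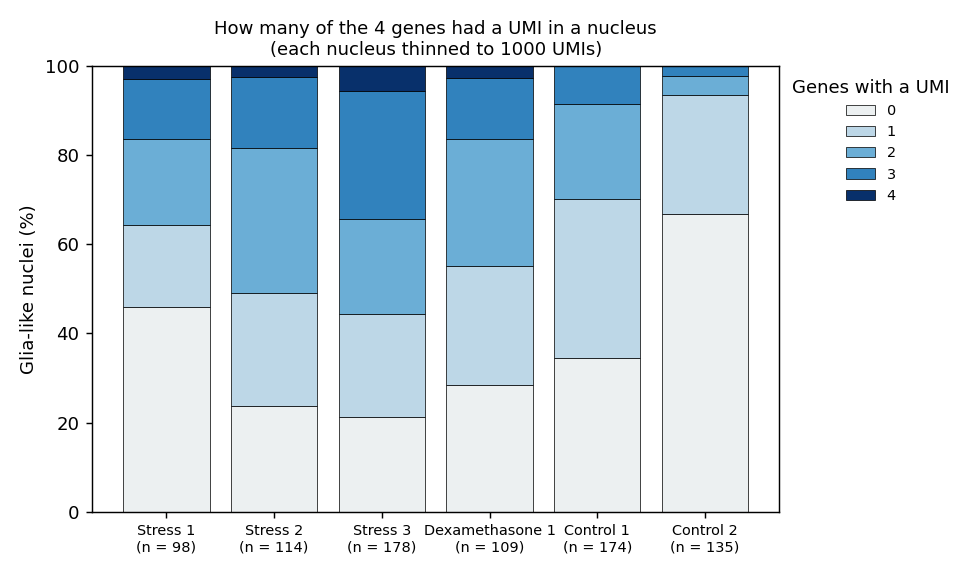
Share of glia-like nuclei (%, stacked) by the number of the 4 genes with at least 1 UMI, in each library, after thinning each nucleus to 1000 UMIs; n is the number of nuclei. Nuclei with 3 or 4 of the genes number 16 of 98, 21 of 114 and 61 of 178 in Stress, 18 of 109 in Dexamethasone, and 15 of 174 and 3 of 135 in Control.

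Fibroblasts are the connective tissue cells of the gut wall, and in fibroblast-like nuclei Nr4a3 and Nr4a1 stood above Control in all Stress libraries and in the Dexamethasone one. This class (27 to 44 nuclei per library) had Dcn and Pdgfra among its leading genes. Nr4a3 had 26, 19 and 50 UMIs in Stress (373, 221 and 466 CPM), 25 in Dexamethasone (272 CPM), and 1 and 0 in Control. Nr4a1 had 34, 38 and 68 UMIs in Stress (488, 443 and 634 CPM), 44 in Dexamethasone (478 CPM), and 8 and 0 in Control (155 and 0 CPM, where 0 UMIs allow up to 56.3 CPM). No Stress or Dexamethasone library overlapped the Control libraries for either gene. In Control 2, 0 UMIs of Nr4a3 allow up to 56.3 CPM as well.

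The log2 fold change of Nr4a3 for Stress over Control was 4.92 ± 0.81 (SE, edgeR adjusted p = 0.00750) and that of Nr4a1 was 2.68 ± 0.63 (SE, edgeR adjusted p = 0.0494). For Dexamethasone over Control, where the fit gives 1 library the spread of the other groups and so describes that library, these were 4.64 ± 0.95 for Nr4a3 (SE, edgeR adjusted p = 0.00253) and 2.64 ± 0.68 for Nr4a1 (SE, edgeR adjusted p = 0.0243). Of all genes tested in this class 1.45% passed for Stress (1.16% higher) and 2.39% for Dexamethasone (2.18% higher). All Stress libraries stood above both Control libraries for 16.8% of genes, and the Dexamethasone library for 34.6%. Nr4a3 in both fits, and Nr4a1 in the Stress fit, passed the filter on low counts through the libraries of Stress and Dexamethasone. A gene that passed this way had to differ. In the Dexamethasone fit Nr4a1 could pass through Control 1 as well, but its call there describes 1 library against 8 and 0 Control UMIs. Neither their number nor their adjusted p is therefore support for a change, and the values describe these libraries. Pooled over libraries, the level of Nr4a3 was 38.0 times that of Control in Stress (exact 95% counting interval 6.65 to 1516) and 28.6 times in Dexamethasone (4.67 to 1172), on 1 Control UMI. Counting intervals cover counting error only.

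These calls rest on few nuclei. Without Control 2 the log2 fold change of Nr4a1 was 1.72 for Stress and 1.68 for Dexamethasone, and without Control 1 no UMI of Nr4a1 or Nr4a3 was left in Control, so that the fitted fold depends on the prior count and gives no size. The adjusted p of Nr4a3 for Stress was 0.0662 without Stress 3 and 0.0747 without Control 2, and that of Nr4a1 was 0.0989 to 0.216 without any 1 of the Stress libraries or without Control 2. For Dexamethasone, the adjusted p of Nr4a3 was 0.0614 without Control 1 and 0.147 without Control 2, and that of Nr4a1 was 0.259 without Control 2. Glia markers summed to 430, 315 and 326 CPM in fibroblast-like nuclei of Stress, 272 CPM in Dexamethasone, and 348 and 225 CPM in Control. Plasma cell markers summed to 3979 CPM in Control 1 and to 0 to 74.5 CPM in the other libraries, a difference whose part in the result was not tested.

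Nr4a2 and Crem were sparse in fibroblast-like nuclei. Nr4a2 had 4, 10 and 18 UMIs in Stress, 9 in Dexamethasone, and 2 and 1 in Control, a pooled ratio of 4.26 for Stress over Control (exact 95% counting interval 1.33 to 21.8). Crem had 8, 7 and 9 UMIs in Stress, 3 in Dexamethasone, and 1 and 0 in Control. Neither passed the low count filter for Stress, and for Dexamethasone Nr4a2 had a log2 fold change of 1.74 ± 1.12 (SE, edgeR adjusted p = 0.609). Nr4a3 thus had 95 UMIs and Crem 24 in fibroblast-like nuclei of Stress, where glia-like nuclei of the same libraries had 1387 and 1204.

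None of the 4 genes passed in neuron-like nuclei (34 to 157 per library), in which Nr4a2 is best known from the brain. Nr4a2 had 0, 9 and 46 UMIs in Stress (0, 7.36 and 34.0 CPM), 32 in Dexamethasone (54.2 CPM), and 12 and 1 in Control (18.2 and 2.84 CPM). For Stress, log2 fold changes were -0.02 ± 0.41 for Nr4a1, 0.45 ± 0.89 for Nr4a2, 1.03 ± 0.71 for Nr4a3 and 0.31 ± 0.44 for Crem (SE), with edgeR adjusted p of 0.651 to 0.996. For Dexamethasone they were 1.18 ± 0.47 for Nr4a1, 2.00 ± 0.93 for Nr4a2, 0.31 ± 0.98 for Nr4a3 and 0.50 ± 0.55 for Crem (SE), with edgeR adjusted p of 0.407 to 0.942. No gene passed edgeR's test in this class (0% of 8066 genes for Stress and 0% of 9282 for Dexamethasone), DESeq2 called 20 and 17, and 804 and 958 had an unadjusted p under 0.05 by edgeR. Of the 4 genes Nr4a1 in Dexamethasone had an unadjusted p under 0.05 (0.0276).

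The Stress effect was not shown to differ between fibroblast- and neuron-like nuclei. The difference of the log2 fold changes, in a fit with the library as a block that was added after the data had been seen, was 2.85 ± 0.73 for Nr4a1 (SE, edgeR adjusted p = 0.106) and 4.33 ± 1.28 for Nr4a3 (SE, edgeR adjusted p = 0.257). In that fit 0.0192% of 5221 genes passed. This fit and the next ones reuse the fibroblast-like counts in which both genes had been called. Their p-values are therefore no separate test of a difference between classes and describe these libraries. Against smooth muscle-like nuclei the difference was 1.97 ± 0.81 for Nr4a1 and 4.55 ± 1.94 for Nr4a3 (SE, edgeR adjusted p of 0.577 and 0.599). Against epithelium-like nuclei it was smaller, 0.75 ± 0.80 for Nr4a1 and 2.17 ± 1.82 for Nr4a3 (SE, edgeR unadjusted p of 0.359 and 0.241).

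In epithelium-like nuclei Nr4a1 had 246, 172 and 173 CPM in Stress, 48.0 CPM in Dexamethasone, and 60.5 and 37.7 CPM in Control. All 3 Stress libraries stood above both Control libraries, as for 9.58% of genes, and the adjusted p was 0.681 (log2 fold change 1.90 ± 0.41, SE, edgeR, unadjusted p 0.00125). No gene passed edgeR's test there (0% of 5155, with 200 at an unadjusted p under 0.05 and 5 called by DESeq2), and 0.0148% passed for Dexamethasone. Without the filter on low counts the edgeR adjusted p of Nr4a1 was 0.0128, and over its other alternatives it was 0.135 to 1.00. In smooth muscle-like nuclei Nr4a1 had 162, 97.0 and 199 CPM in Stress, 161 CPM in Dexamethasone, and 96.3 and 83.8 CPM in Control (edgeR adjusted p = 0.607 for Stress and 0.716 for Dexamethasone). Crem there had 35.1, 34.6 and 59.4 CPM in Stress, 188 CPM in Dexamethasone, and 86.7 and 50.3 CPM in Control (edgeR adjusted p = 0.392 for Dexamethasone, where 0.903% of genes passed; 0.353% passed for Stress).

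**Figure D4:**
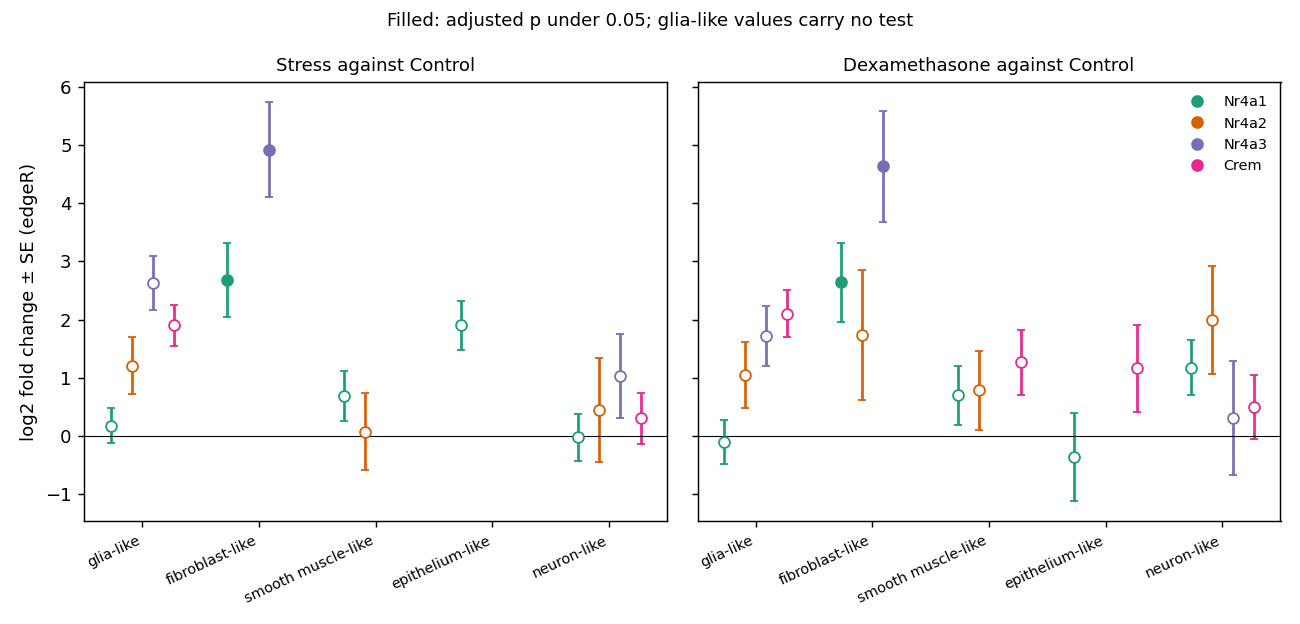
Log2 fold change over Control with its SE (edgeR) of each gene in 5 cell classes, for Stress (left) and Dexamethasone (right); a gene is left out where it did not pass the low count filter or had 3 UMIs or fewer in both groups. Filled points passed at an adjusted p under 0.05, which holds for Nr4a1 and Nr4a3 in fibroblast-like nuclei (log2 fold changes of 2.64 to 4.92), and points of glia-like nuclei carry no test. The filled genes passed the low count filter through the Stress and Dexamethasone libraries and had to differ, except Nr4a1 for Dexamethasone, which Control 1 also let pass. The fill is no support for a change.

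Of the genes that feed this pathway, none passed in glia-like nuclei of Stress, where 2.09% of all genes tested did, a share at which lists of this size hold few or none. This holds for 10 CREB family genes and coactivators, 13 tested adenylyl cyclases, protein kinase A subunits and salt-inducible kinases, 10 cAMP phosphodiesterases, 9 NR4A partners and corepressors and 24 MEF2, MAP kinase and calcium genes, with median log2 fold changes of -0.05 to 0.03 beside -0.01 over all genes tested. Nor did the 1 Gs-coupled receptor, the 3 dopamine neuron genes known to depend on NR4A2 or the 9 other orphan and steroid receptors that were tested. Of 17 tested genes known to be induced by cAMP and CREB, 4 rose and none fell, beside 1.53% and 0.565% of all genes tested (median log2 fold change 0.05). Per2, a clock gene, rose by 2.00 ± 0.37, Irs2, an adaptor of insulin signalling, by 1.16 ± 0.22, and Fosl2, an AP-1 subunit, by 1.15 ± 0.27 (log2, SE, edgeR adjusted p of 0.0123, 0.0142 and 0.0396). Ptgs2, the inducible cyclooxygenase, had 8, 14 and 54 UMIs in Stress and 0 in both Control libraries. That is at least 13.9-fold higher over the group against a floor of 3 counts (edgeR adjusted p = 0.00774). Ptgs2, and Per2 with 8 and 6 UMIs in Control, passed the filter on low counts through the Stress libraries alone, so they had to differ. Their calls, and their part in the count of 4, are no support for a change.

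Other immediate early genes were called in both directions in glia-like nuclei of Stress. Of 21 tested, 3 rose (Homer1, Maff and Fosl2) and 2 fell (Atf3 and Klf6), beside 1.53% of all genes tested that rose and 0.565% that fell, and the median log2 fold change was -0.32. Homer1, which encodes a synaptic scaffold, had 156, 332 and 554 UMIs in Stress, and 101 and 25 in Control (log2 fold change 2.11 ± 0.37, SE, edgeR adjusted p = 0.00894). Atf3, a stress-induced transcription factor, had 45, 125 and 168 UMIs in Stress, and 292 and 264 in Control (log2 fold change -1.65 ± 0.22, SE, edgeR adjusted p = 0.00162). The AP-1 and zinc finger genes Fos, Fosb, Junb and Egr1 had log2 fold changes of -0.43, -0.05, -0.09 and 0.26 (edgeR adjusted p of 0.428 to 0.960). The number that rose was 0 without Stress 2 or without Stress 3, and 1 without Stress 1 or without Control 2.

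In fibroblast-like nuclei the same list ran mostly upwards. Of 16 tested, 5 rose in Stress (Egr1, Btg2, Fos, Fosb and Junb), none fell, beside 1.16% of all genes tested that rose, and the median log2 fold change was 1.53 beside a median near 0 over all genes tested. Egr1 had 73, 103 and 134 UMIs in Stress, and 19 and 13 in Control (log2 fold change 1.85 ± 0.33, SE, edgeR adjusted p = 0.0132). Fos had 52, 89 and 92 UMIs in Stress, and 16 and 9 in Control (1.80 ± 0.37, SE, edgeR adjusted p = 0.0304). None passed without Stress 2, without Stress 3 or without Control 2, and 2 passed without Stress 1. Of 10 tested genes induced by cAMP and CREB, 3 (Fos, Fosb and Junb, which are on both lists) rose, and the median was 1.37. The difference between the classes in these lists was not tested. In neuron-like nuclei none of the 14 tested immediate early genes passed for Stress or of the 19 tested for Dexamethasone, with median log2 fold changes of 0.34 and 1.08.

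The comparisons for Dexamethasone rest on 1 library, to which the fit gives the spread of the other groups, so the calls describe that library and have no replicate check. In fibroblast-like nuclei, 8 of 19 tested immediate early genes were called higher in it, beside 2.18% of all genes tested (median log2 fold change 2.02 beside -0.05 over all genes tested). Among the 8, Homer1 (6 and 0 UMIs in Control) and Zfp36 (1 and 3) passed the filter on low counts without the Control libraries. They had to differ, and their part in this count is no support for a change. The phosphatase gene Dusp1, a known glucocorticoid target, had 98 UMIs in Dexamethasone, and 8 and 4 in Control (log2 fold change 3.22 ± 0.52, SE, edgeR adjusted p = 0.000153). In glia-like nuclei 5.44% of all genes tested were called higher in the Dexamethasone library and 0.649% lower. Of 23 immediate early genes there, 3 were called higher (Fosl2, Homer1 and Maff) and 2 lower (Jun and Atf3), and of 19 genes induced by cAMP and CREB 4 were called higher (Irs2, Fosl2, Ptgs2 and Per1). Ptgs2, with 0 UMIs in both Control libraries, again passed the filter on low counts without them and had to differ.

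Among the inputs in glia-like nuclei of Dexamethasone, 1 of 12 CREB family genes and coactivators was called higher, which was Creb5, a CREB relative (log2 fold change 1.43 ± 0.26, SE, edgeR adjusted p = 0.00193). Of 14 adenylyl cyclases, protein kinase A subunits and salt-inducible kinases, 1 was called higher, the kinase gene Sik3 (1.65 ± 0.29, SE, edgeR adjusted p = 0.00144), whose product restrains CREB coactivators. Of 2 Gs-coupled receptors, 1 was called higher, Glp2r, the receptor of the gut hormone GLP-2 (1.35 ± 0.36, SE, edgeR adjusted p = 0.0310). Of 24 MEF2, MAP kinase and calcium genes, 2 were called higher, Rps6ka3 and Nfatc2 (1.38 and 1.33, edgeR adjusted p of 0.00247 and 0.00780). Of 11 phosphodiesterases, which degrade cAMP, 1 was called higher: Pde4c had 28 UMIs in Dexamethasone and 0 in every other library, at least 12.4-fold higher than Control over the group against a floor of 3 counts. Pde4c passed the filter on low counts through the Dexamethasone library alone, so it had to differ, and its call is no support for a change. None of 11 NR4A partners and corepressors was called, nor was a member of any of these input lists called lower. Of 9 other orphan and steroid receptors, 1 was called higher (Nr1d2) and 1 lower. The lower one, Nr3c1, the glucocorticoid receptor itself, had 17 UMIs in Dexamethasone, and 37 and 31 in Control (log2 fold change -1.49 ± 0.41, SE, edgeR adjusted p = 0.0346).

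**Figure D5:**
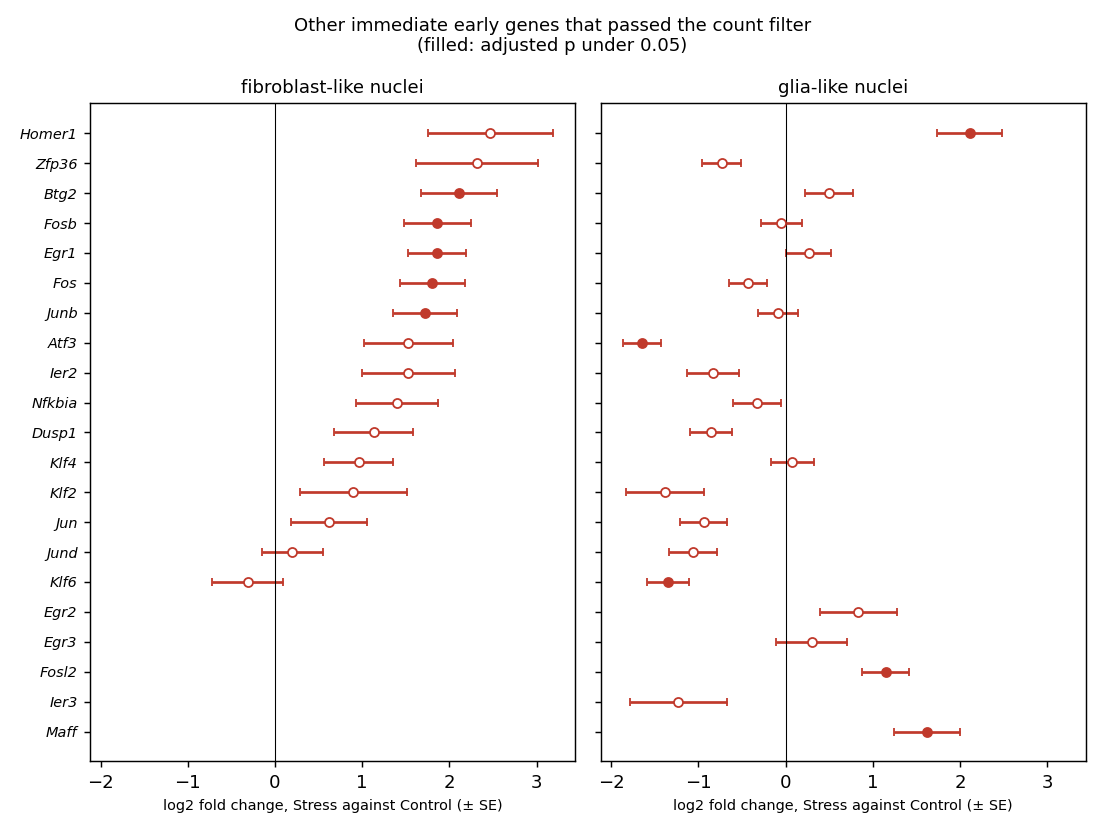
Log2 fold change (± SE, edgeR) of Stress over Control for the immediate early genes that passed the count filter, in fibroblast-like nuclei (left) and glia-like nuclei (right). Filled points passed at an adjusted p under 0.05: Egr1, Btg2, Fos, Fosb and Junb on the left, and Homer1, Maff, Fosl2, Atf3 and Klf6 on the right, of which Atf3 and Klf6 lie below 0.

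Patterns most like those of the 4 genes were ranked by Pearson's r of log2(CPM + 10) over 36 sums (6 classes in 6 libraries), among 7259 genes. For Nr4a1 they were Nr4a3 (r = 0.84), Dnah7b (0.83), Homer1 (0.80), Sox6 (0.78) and Irs2 (0.78). For Nr4a3 they were Arid5a (0.86), Homer1 (0.85), Nr4a1 (0.84), Abca8a (0.83) and Galnt16 (0.83). For Nr4a2 they were Arid5a (0.84), Usp2 (0.83), P2rx7 (0.82), Nr4a3 (0.81) and Tor1aip1 (0.81). For Crem they were E130114P18Rik (0.83), Arih1 (0.82), Arid5a (0.82), Tmprss5 (0.82) and S1pr3 (0.81). The 3 receptors were within the 20 most similar genes of each other, while Nr4a1 ranked 204 for Crem (r = 0.60). These lists depend on the setting. With 1 in place of 10 added to CPM, Nr4a2 ranked 62 for Nr4a1, and Nr4a1 ranked 100 for Nr4a2 and 87 for Crem. By Spearman's rank correlation the receptors stayed within that limit, and Nr4a1 ranked 336 for Crem. Of the 5 genes named, each alternative shared 1 for Crem, 2 for Nr4a2, 3 for Nr4a3 and 2 to 4 for Nr4a1. Sums of 1 library share its depth, and sums of small classes rest on few UMIs, so these are descriptions.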

How the data were processed

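Single-nucleus RNA was counted in 6 libraries. The deposited values are whole-number UMI counts per gene and barcode, made by the authors with Cell Ranger 4.0.0 (Stress, Control) or 5.0.1 (Dexamethasone), per the file headers; the submitters' processing notes name versions 5 and 5.0 and mm10. The remaining deposited files are name lists, for genes or barcodes. The counting of introns is not given in the sources used here. The software version changes with the Dexamethasone group, and its part cannot be told apart.

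Barcodes with at least 300 genes and at most 5% mitochondrial UMIs were kept, and scanpy 1.11.5's scrublet removed 31 doublets. The 2000 most variable genes gave 30 components, 15 neighbours and 24 Leiden clusters at resolution 1.0. Left out beforehand were the 4 genes described, the other immediate early genes and the genes induced by cAMP and CREB. A list of genes tied to glucocorticoids, and sex-linked, mitochondrial and ribosomal protein genes, were left out too. A cluster took the name of the marker list of which the largest share (at least 30%, at least 3 genes) was in 10% of its nuclei and raised 2-fold; this rule was set after the clusters were seen, and differences from other analyses of these nuclei may come from rebuilt names.

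UMIs summed per library and class were filtered (filterByExpr), normalized (TMM) and tested with edgeR 4.0.16's quasi-likelihood test, adjusted by Benjamini-Hochberg over all genes tested at 0.05. The Stress comparison used the Stress and Control libraries, the Dexamethasone comparison all 6. The fit was tested on simulated counts. Mitochondrially encoded genes were left out of CPM. Genes were named by rule: the 4 genes, up to 4 passing members of each list by smallest p, and the 5 most similar genes. List members named beyond that (the fifth passing ones, and Fos, Fosb, Junb and Egr1 in glia-like nuclei) were named after their values were seen. The 4 genes and all lists were chosen with earlier results of these data known. Alternatives were DESeq2 1.42.0, no count filter, thinned sums, left-out libraries, a replicate block, stricter and looser nuclei filters, doublets kept and other resolutions. Promoter sequences are from RefSeq (GRCm38.p6), and annotation is GENCODE M21.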

Additional observations from a re-analysis of the deposited data

How the results depend on the processing

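Over the 4 genes, 39 fold changes were recomputed under 510 alternatives: 420 kept direction and side of the threshold, 43 changed sign, 22 lost the call, 2 gained it and 23 untested glial values moved by more than their SE. The 22 lost calls were all of Nr4a1 and Nr4a3 in fibroblast-like nuclei, the only fold changes called to begin with. Nr4a1 kept its call in 7 of 15 alternatives for Stress and 10 of 15 for Dexamethasone. Nr4a3 kept it in 11 of 14 and 9 of 15. The cause was not tested. All values here are log2 fold changes.

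Leaving out 1 library at a time, Stress in glia-like nuclei gave -0.30 to 0.92 for Nr4a1, 0.41 to 3.25 for Nr4a2, 1.89 to 4.34 for Nr4a3 and 1.38 to 2.78 for Crem, and Dexamethasone -0.59 to 0.65, 0.24 to 3.09, 0.97 to 3.43 and 1.56 to 2.98. Stress in neuron-like nuclei gave -0.41 to 0.38 for Nr4a1, -0.11 to 2.50 for Nr4a2 and -0.36 to 0.54 for Crem, and Dexamethasone -0.27 to 0.82 for Nr4a3. Stress in smooth muscle-like nuclei gave -0.33 to 0.46 for Nr4a2. Fibroblast-like nuclei gave 1.72 to 8.37 for Nr4a1 and 4.06 to 7.81 for Nr4a3 in Stress, and 1.68 to 8.31 and 3.77 to 7.498 in Dexamethasone. The upper ends are fits without Control 1, in which Control had 0 UMIs of either gene; they depend on the prior count and are neither folds nor bounds. Dexamethasone in epithelium-like nuclei gave -0.68 to 0.38 for Nr4a1, -1.16 to 4.70 for Nr4a2 and -4.65 to 0.00 for Nr4a3. In these, Nr4a3 had 0 UMIs in Dexamethasone, and Nr4a2 had 0 in Control 1. Over the mitochondrial limit, Nr4a1 gave -0.30 to 1.94 in Stress and -0.999 to 1.23 in Dexamethasone, and Nr4a2 -0.15 to 3.00 in Dexamethasone.

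Without the 2 shallowest libraries (Control 1 and Stress 1), glia-like nuclei gave 1.10, 3.42, 4.57 and 3.00 for Nr4a1, Nr4a2, Nr4a3 and Crem in Stress, and 0.65, 3.10, 3.44 and 2.99 in Dexamethasone. Nr4a1 was then 0.51 in Stress neuron-like nuclei, 0.34 in Dexamethasone epithelium-like nuclei and 1.21 in Dexamethasone over the limit, Nr4a3 was -0.28 in Dexamethasone neuron-like nuclei, and Nr4a2 was -0.62 in Stress smooth muscle-like nuclei. At resolution 2.0, glial Crem was 2.30 in Stress and 2.57 in Dexamethasone, and Nr4a1 was 0.013 in Stress neuron-like nuclei. With thinned sums, Dexamethasone gave 0.036 for Nr4a1 in glia-like, 0.056 for Nr4a1 in epithelium-like and -0.069 for Nr4a3 in neuron-like nuclei. Without the count filter, Nr4a2 in Dexamethasone neuron-like nuclei (1.97) and Nr4a1 in Stress epithelium-like nuclei (1.92) passed.

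With the stricter nuclei filter (at least 500 genes, at most 2% mitochondrial), Nr4a1 was 0.94 in Stress neuron-like nuclei, 3.00 in Stress and 1.09 in Dexamethasone fibroblast-like nuclei, and 0.57 in Dexamethasone epithelium-like nuclei. Nr4a3 was then 2.95 in Dexamethasone fibroblast-like and -0.59 in Dexamethasone neuron-like nuclei, Crem -0.095 in Dexamethasone neuron-like and -0.29 in Dexamethasone smooth muscle-like nuclei, and Nr4a2 -0.21 in Stress and -2.60 in Dexamethasone smooth muscle-like and -2.68 in Dexamethasone epithelium-like nuclei. With no mitochondrial limit, fibroblast-like nuclei lost both calls in both comparisons (Nr4a1 2.00 and Nr4a3 3.04 in Stress, 2.01 and 2.37 in Dexamethasone), Nr4a2 was -0.50 in Stress smooth muscle-like nuclei, and Nr4a1 was 0.92 and Nr4a3 3.96 in Dexamethasone epithelium-like nuclei. With doublets kept, Nr4a1 was 0.045 in Stress neuron-like and 2.70, no longer called, in Stress fibroblast-like nuclei. By DESeq2, Dexamethasone fibroblast-like nuclei lost both calls (2.65 for Nr4a1, 4.83 for Nr4a3).

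Replicate numbers were not used as pairs: deviations of same-numbered libraries correlated at -0.33 to 0.33 over 12 pairs, not all above 0.1. The deviations of the 2 Control libraries are opposite by construction, so this cannot exclude pairing. With a replicate block, Stress in neuron-like nuclei gave -0.77 for Nr4a2, -0.34 for Nr4a3 and -0.47 for Crem, Nr4a2 was -0.084 in Stress smooth muscle-like and -0.11 in Dexamethasone epithelium-like nuclei, and in fibroblast-like nuclei Nr4a1 (2.64 in Stress, 2.36 in Dexamethasone) and Nr4a3 in Dexamethasone (4.27) were not called. Counts of called genes ran from 32 to 266 in glia-like (137 as reported) and from 6 to 78 in fibroblast-like nuclei (25) for Stress, and from 206 to 641 (469) and 5 to 105 (68) for Dexamethasone.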
